A study of Mus musculus with 4 samples.

Results

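Heat shock and unfolded protein response (UPR) genes were examined in sorted mesenchymal stromal cells (MSCs) of mouse bone. The 38 members, of 27998 genes in the files, were listed by name with earlier results of these data known, and all 38 were found. They comprised 13 cytosolic chaperones and co-chaperones, 2 mitochondrial chaperonins, the heat shock transcription factor gene Hsf1, 13 chaperones and folding enzymes of the endoplasmic reticulum (ER), 3 genes of ER-associated degradation, and 6 UPR transcription factors and targets of Atf4. The 4 libraries were made from C57BL/6 mice with the Chromium 3' v3.1 chemistry, which counts molecules by unique molecular identifiers (UMIs), and each group was 1 library. WT_A1, wild type, was paired by the design with NHD13Tg, which carries the Nup98-HoxD13 fusion transgene, a mouse model of myelodysplastic syndrome (MDS). Control, also wild type, was paired with the group labelled Abcg2-MDS/AML, whose name joins Abcg2 to MDS and acute myeloid leukaemia (AML). In every group the cells came from femora and tibiae digested with 2 mg/mL collagenase for 60 min at 37 °C, and were sorted as negative for CD45, TER119 and CD31 and positive for CD140a and CD51. The promoter or cell type driving either model, the age, the sex and the number of animals per library are details not given in the sources used here.

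Heat shock proteins hold unfolded polypeptides and refold them with ATP, and the transcription factor Hsf1 raises their genes when unfolded protein accumulates in the cytosol. In the ER the same task falls to Hspa5 (BiP), Hsp90b1, the lectin chaperones Calr and Canx and the protein disulfide isomerases. The UPR raises these genes through the transcription factors Atf6, Xbp1 and Atf4 when folding in the ER falls behind, and ER chaperones are abundant in cells that secrete matrix. Heat shock and immediate early genes also respond to warm enzymatic digestion of tissue, which every library here went through.

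Cells were barcodes with at least 2000 UMIs, at least 500 genes and at most 10% mitochondrially encoded UMIs. There were 4973 in WT_A1 against 5766 in NHD13Tg, and 5158 in Control against 5586 in Abcg2-MDS/AML, from total counts of 36133716 to 46033790 UMIs, and any 2 libraries shared 6 to 14 cell barcodes. Classes were cut on marker UMIs per 10000: MSC by Adipoq, Lepr and Esm1, osteoblast by Bglap and Bglap2, chondrocyte by 3 Col9 genes, fibroblast by Dpt, Clec3b and Col14a1, and tendon by Thbs4 and Myoc. Such a class is a range of a marker sum and not a cell type, and between 26.1% and 54.6% of the cells of a library fell in no class. The MSC class held 631 cells in WT_A1 against 1803 in NHD13Tg, and 417 in Control against 154 in Abcg2-MDS/AML, of which 519, 1606, 388 and 57 also reached doubled marker levels. In the MSC class of Abcg2-MDS/AML the labelled cell type was weakly marked: Adipoq stood at 275 counts per 1000000 UMIs (CPM) against 3431 in Control, and Cxcl12 at 1925 against 17135, while Lepr stood at 1461 against 1092. The library labelled Abcg2-MDS/AML therefore had an MSC class defined mainly by Lepr. Its Cxcl12 level lay near that of the fibroblasts of the same library (1681 CPM). At least 50 Cxcl12 UMIs per 10000 were held by 19 of its 154 MSCs, against 402 of 417 in Control. Ratios of the Abcg2 pair in MSCs thus compare classes of unlike marker levels.

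Promoter windows of 30 of the 38 members were in the RefSeq table of build GRCm38.p6 (250 bases before to 50 after the start site). Those of Hspa8, Hsp90aa1, Hsp90ab1, Cryab, Hsf1, Manf, Hyou1 and Atf6 were not in it. Motifs were searched on both strands as the core of a heat shock element (GAANNTTC), its 3-unit form (GAANNTTCNNGAA or its inverse, which contains the core), the ER stress response element (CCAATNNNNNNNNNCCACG) and the C/EBP-ATF response element (TGATGNAA). The first was found in 9 of 11 cytosolic or mitochondrial members and in 0 of 19 ER and UPR members, and in 9.04% of all 27025 genes. The 9 were Hspa1a, Hspa1b, Hspb1, Hspb8, Hsph1, Dnaja1, Bag3, Hspd1 and Hspe1. In Hspb8, Hsph1 and Bag3 the core lay after the start site. The ER stress response element was found in 7 of 19 ER and UPR members (Hspa5, Hsp90b1, Pdia6, Calr, Canx, Dnajc3 and Creld2), in 0 of 11 others and in 0.137% of all genes. TGATGNAA was found in Herpud1, Trib3 and Chac1 and in 4.51% of all genes. A match is a description of the letters in these windows. The 250 bases before the start site are shown for 4 members whose levels are given below, 5′ to 3′ on the gene's strand, with the matches in capitals.
Hspa5, chr2:34771840-34772089, plus strand: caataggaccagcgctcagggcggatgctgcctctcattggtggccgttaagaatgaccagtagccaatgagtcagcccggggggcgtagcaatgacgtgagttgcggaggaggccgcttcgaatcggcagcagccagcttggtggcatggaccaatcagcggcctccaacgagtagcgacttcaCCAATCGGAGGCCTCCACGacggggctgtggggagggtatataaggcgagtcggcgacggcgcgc
Hsp90b1, chr10:86705445-86705694, minus strand: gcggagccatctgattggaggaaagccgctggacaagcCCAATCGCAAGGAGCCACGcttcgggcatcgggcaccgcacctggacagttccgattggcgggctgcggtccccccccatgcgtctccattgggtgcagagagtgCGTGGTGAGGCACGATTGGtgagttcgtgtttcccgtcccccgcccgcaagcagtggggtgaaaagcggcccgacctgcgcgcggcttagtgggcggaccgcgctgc
Creld2, chr15:88819396-88819645, plus strand: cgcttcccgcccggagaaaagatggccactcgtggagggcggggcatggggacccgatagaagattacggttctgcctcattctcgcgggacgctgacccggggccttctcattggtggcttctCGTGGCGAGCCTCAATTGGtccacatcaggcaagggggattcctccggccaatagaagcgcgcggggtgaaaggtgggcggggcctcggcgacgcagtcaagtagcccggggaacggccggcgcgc
Hspa1a, chr17:34972157-34972406, minus strand: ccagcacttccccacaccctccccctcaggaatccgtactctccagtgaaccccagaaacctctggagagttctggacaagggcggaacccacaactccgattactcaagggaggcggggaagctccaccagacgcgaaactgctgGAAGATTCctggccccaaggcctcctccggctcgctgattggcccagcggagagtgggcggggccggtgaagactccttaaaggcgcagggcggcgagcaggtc
Hsp90b1 had 2 matches. The Hspa1a window differed from that of Hspa1b, a neighbouring gene of nearly the same sequence, at few positions (296 of 300 bases identical), and reads of the pair may be split between them by the counting.

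Shorter stretches, the match with up to 10 bases on each side, show how the ER element recurs in 4 more folding genes with different spacer letters.
Pdia6, chr12:17266481-17266519, plus strand: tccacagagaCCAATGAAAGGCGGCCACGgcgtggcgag
Calr, chr8:84847065-84847103, minus strand: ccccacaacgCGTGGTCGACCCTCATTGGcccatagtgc
Canx, chr11:50325790-50325828, minus strand: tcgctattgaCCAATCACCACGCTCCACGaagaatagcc
Dnajc3, chr14:118937817-118937855, plus strand: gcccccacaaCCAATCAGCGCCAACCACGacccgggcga
The 3-unit heat shock element was found in Hsph1, Hspd1 and Hspe1 and in 0.662% of all genes. The mitochondrial chaperonins Hspd1 and Hspe1 are divergent neighbours whose windows share 285 of 300 bases, so that 1 site stands in both. Hspb1 and Dnaja1 had the core before the start site, and Herpud1 had the C/EBP-ATF element.
Hspe1, chr1:55088049-55088086, plus strand: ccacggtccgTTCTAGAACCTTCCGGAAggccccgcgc
Hspb1, chr5:135887812-135887839, plus strand: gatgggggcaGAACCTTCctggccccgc
Dnaja1, chr4:40722334-40722361, plus strand: aaagcctctaGAAAATTCtacgaggctc
Herpud1, chr8:94386307-94386334, plus strand: ccacggcgggTTGCATCAgcccgcaccc

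Both chaperone groups took a smaller share of all UMIs in each model library than in its wild-type partner, in every class that could be compared. Values are CPM of UMIs summed over the cells of a class, and ratios are log2 model over wild type with 0.5 added to each count. With 1 library per group there was no replicate check and no test within a pair, and all intervals (95%, exact conditional binomial) cover counting error only. In MSCs the 13 cytosolic chaperones summed to 8114 CPM in WT_A1 against 6296 in NHD13Tg, and 6893 in Control against 5699 in Abcg2-MDS/AML. The log2 ratio was -0.37 (-0.39 to -0.34) in the NHD13 pair and -0.27 (-0.33 to -0.22) in the Abcg2 pair. The 13 ER chaperones summed to 8223, 6157, 7201 and 4070 CPM in the same order, with ratios of -0.42 (-0.44 to -0.40) and -0.82 (-0.89 to -0.76). Abcg2-MDS/AML was thus the lowest of the 4 libraries for both groups, and its ER sum lay 43.5% below Control.

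A few abundant members carried these sums. Hspa8, Hsp90ab1 and Dnaja1 made up 69.9% to 71.8% of the cytosolic UMIs of MSCs, and Hspa5 alone 32.3% to 40.5% of the ER UMIs. Without Hspa5 the ER ratio of the NHD13 pair was -0.23 (-0.26 to -0.20), and that of the Abcg2 pair -0.88 (-0.96 to -0.79). The lower ER sum of NHD13Tg was therefore carried in large part by Hspa5, and that of Abcg2-MDS/AML was as low without it.

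**Figure D1:**
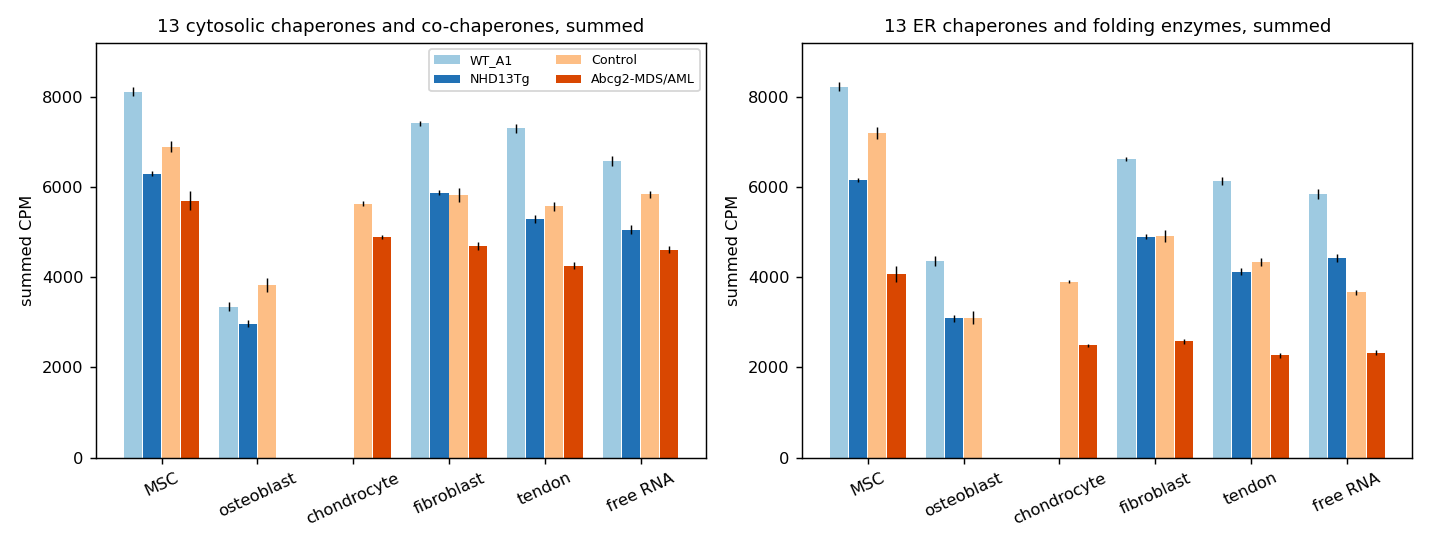
Summed CPM (vertical axis) of the 13 cytosolic chaperones (left) and the 13 ER chaperones (right) by cell class and in free RNA, with 1 bar per library and lines for exact 95% Poisson intervals. In MSCs the cytosolic bars run from 5699 to 8114 CPM and the ER bars from 4070 to 8223 CPM, and each model bar is lower than its wild-type partner.

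Among the cytosolic members the constitutive Hsp70, Hspa8, stood at 2611 CPM in WT_A1 against 1975 in NHD13Tg, and 2112 in Control against 1861 in Abcg2-MDS/AML (log2 ratios -0.40 and -0.18). Hsp90ab1, the constitutive cytosolic Hsp90, stood at 1895, 1654, 1501 and 1397 CPM in that order (-0.20 and -0.10). The model library was the lower one of each pair for both genes, though neither ratio reached 1.5-fold. Dnaja1, an Hsp40 that delivers clients to Hsp70, stood at 1283, 893, 1206 and 749.9 CPM (-0.52 and -0.68). Dnajb1, the stress-inducible Hsp40, stood at 465, 316, 561 and 173 CPM (-0.56 and -1.69, the latter from -2.02 to -1.39). Dnajb4, a related Hsp40, stood at 164, 115, 230 and 112 CPM. For these 3 Hsp40 genes both model libraries were below both wild-type libraries.

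Hsph1 (Hsp110), the nucleotide exchange factor of Hsp70, stood at 53.3 CPM in WT_A1 against 25.1 in NHD13Tg, and 29.3 in Control against 20.3 in Abcg2-MDS/AML, with ratios of -1.09 (-1.39 to -0.78) and -0.48 (-1.63 to 0.43). Bag3, the co-chaperone that links Hsp70 to small heat shock proteins, stood at 173, 115, 144 and 99.5 CPM. The strictly inducible Hsp70 genes went another way. Hspa1a stood at 112, 102, 106 and 151 CPM, and Hspa1b at 104, 68.4, 67.7 and 140.04 CPM, so that Abcg2-MDS/AML was the highest library for both. Hspa1b was lower in NHD13Tg (-0.61, from -0.81 to -0.40) and higher in Abcg2-MDS/AML (1.05, from 0.61 to 1.48). The small heat shock protein gene Hspb8 was at 25.5, 20.3, 4.88 and 35.0 CPM, giving 2.79 (1.58 to 4.24) in the Abcg2 pair from a low level in Control. Cryab, at 25.8, 17.2, 24.4 and 18.4 CPM, was lower by the size rule in the NHD13 pair (-0.59). Hsp90aa1 and Hspb1 had ratios between -0.29 and 0.22, and Hsf1, at 11.1 to 18.4 CPM, was under the level of 20 CPM asked of a gene.

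Hspa5, the ER Hsp70, stood at 3327 CPM in WT_A1 against 1986 in NHD13Tg, and 2570 in Control against 1548 in Abcg2-MDS/AML. Its ratios were -0.74 (-0.78 to -0.71) and -0.73 (-0.84 to -0.62), and both model libraries lay below both wild-type libraries. Sdf2l1, which keeps misfolded proteins soluble with the ER Hsp40 Dnajb11, stood at 106, 60.8, 78.7 and 14.7 CPM, the last from few UMIs. Its ratios were -0.80 and -2.33, the latter from -3.66 to -1.40. Creld2, a secreted ER stress protein, stood at 56.3, 36.4, 42.7 and 22.1 CPM, the latter from few UMIs (-0.63, and -0.90 from -1.97 to -0.06). With doubled MSC marker levels the Creld2 ratio of the Abcg2 pair was 0.25 (-1.01 to 1.20). Manf, a secreted ER protein that binds Hspa5, stood at 456, 305, 301 and 157 CPM (-0.58 and -0.93). Hspa5, Sdf2l1 and Creld2 were lower in both pairs by the size rule, whereas Manf passed 1.5-fold in the Abcg2 pair only; the pairs were not tested against each other.

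The lectin chaperones and disulfide isomerases differed between libraries mainly in Abcg2-MDS/AML. Hsp90b1 (Grp94) stood at 1219, 1004, 1256 and 578.6 CPM (-0.28 and -1.12). Calr, the soluble lectin chaperone, stood at 628, 604, 622 and 276 CPM (-0.05 and -1.17), and its membrane relative Canx at 247, 229.5, 208 and 136 CPM. Pdia6 stood at 580.3, 609, 625 and 293 CPM (0.07, from -0.01 to 0.15, and -1.09). For Calr and Pdia6 the first 3 libraries lay close together and Abcg2-MDS/AML stood apart below them. Pdia3 and Pdia4 had ratios of -0.18 and -0.32 in the NHD13 pair against -0.75 and -1.21 in the Abcg2 pair. Dnajb9, Dnajc3 and Hyou1, co-chaperones of Hspa5, ranged from -0.83 (Hyou1) to -0.20 in the NHD13 pair and from -0.27 to -0.10 in the Abcg2 pair.

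The 3 genes of ER-associated degradation summed to 404 CPM in WT_A1 against 271 in NHD13Tg, and 254 in Control against 252 in Abcg2-MDS/AML, so NHD13Tg was lower than its partner while the Abcg2 pair hardly differed (-0.57 and -0.00). Herpud1, which organises the degradation complex, stood at 280, 175, 158 and 177 CPM (-0.68 and 0.17). Edem1 and Sel1l had ratios of -0.37 and -0.35 in the NHD13 pair, and of -0.92 (-2.28 to 0.10) and -0.11 in the Abcg2 pair. Of the transcription factors, Xbp1 stood at 238, 164, 162 and 95.8 CPM (-0.54 and -0.75), Atf4 at 495, 399.6, 481 and 348 CPM (-0.31 and -0.46) and Atf6 at 62.4, 57.8, 70.8 and 40.5 CPM (-0.11 and -0.78). Ddit3 (Chop), the gene tied to death under lasting ER stress, stood at 91.2, 67.2, 59.8 and 84.8 CPM (-0.44 and 0.51, the latter from -0.03 to 1.02). The Atf4 targets Trib3 and Chac1 were below 4 CPM in all 4 libraries. The mitochondrial chaperonins Hspd1 and Hspe1 together stood at 339, 282, 289 and 306 CPM (-0.27 and 0.08).

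**Figure D2:**
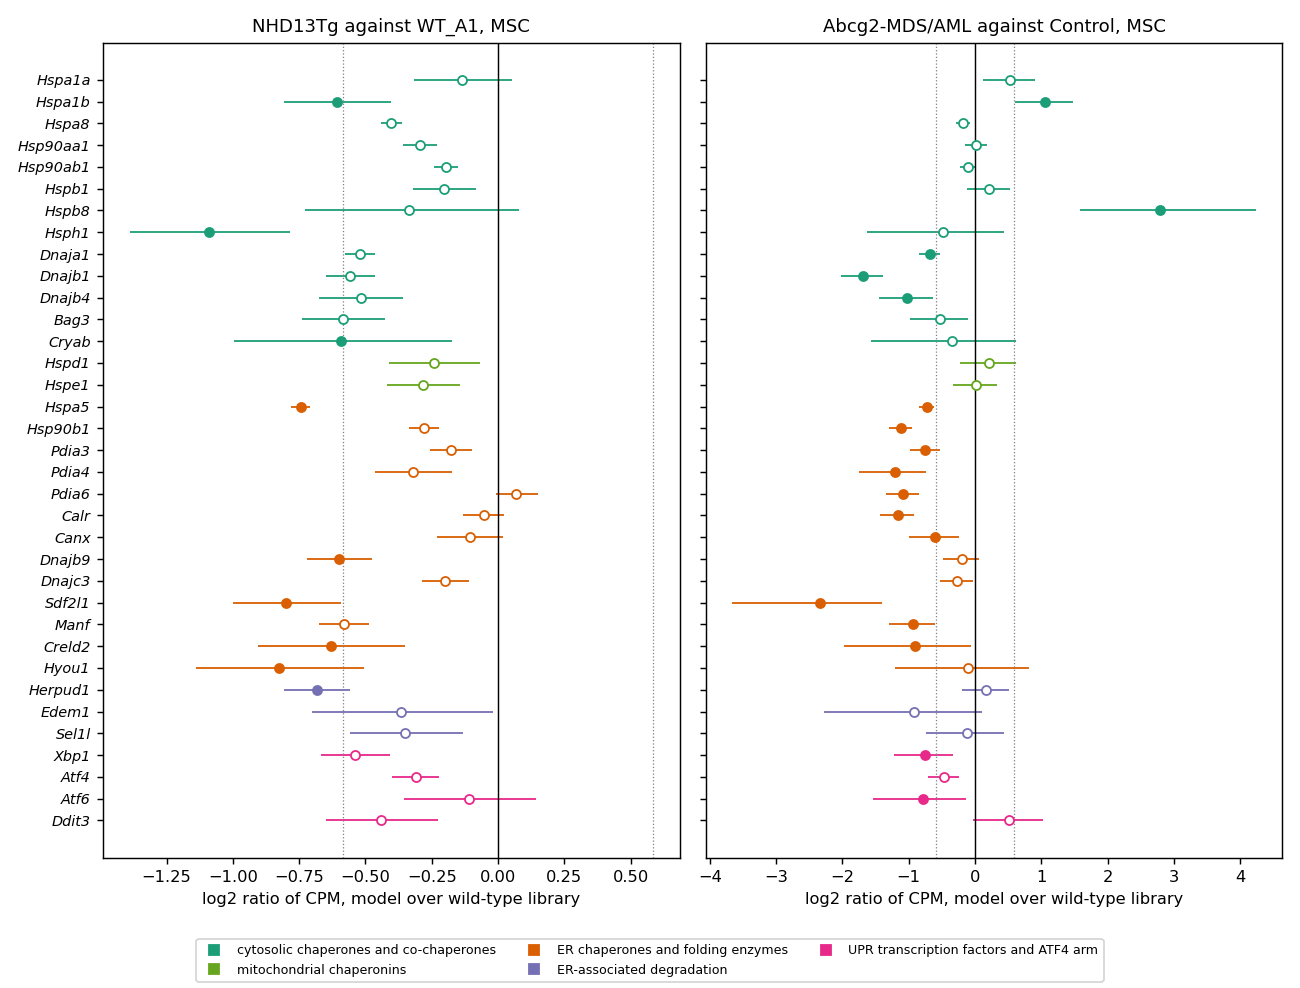
Log2 ratio of CPM in MSCs (horizontal axes, of different range) for the 35 members with at least 20 CPM in 1 library, NHD13Tg over WT_A1 on the left and Abcg2-MDS/AML over Control on the right, coloured by group, with 95% counting intervals and dotted lines at 1.5-fold. Filled points pass the size rule: 9 on the left, all lower, and 17 on the right, of which Hspb8 and Hspa1b are higher.

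A gene counted as higher or lower, by a rule of size that is not a test, when it reached 20 CPM in 1 library, differed at least 1.5-fold and had an interval leaving out a ratio of 1. In MSCs of the NHD13 pair 9 of 35 members were lower and 0 higher, against 8.02% lower and 4.41% higher of all 6169 genes considered. In MSCs of the Abcg2 pair 15 of 35 were lower and 2 higher, against 17.6% lower and 12.8% higher of 6601 genes. Of these members Hspb8 (higher) reached 20 CPM in Abcg2-MDS/AML only, and Sdf2l1 (lower) in Control only. The median log2 ratio was -0.37 over the members and -0.05 over all genes in the NHD13 pair, and -0.48 and -0.06 in the Abcg2 pair. Below 0 were 34 of 35 members (97.1%) in the NHD13 pair and 26 of 35 (74.3%) in the Abcg2 pair, beside 55.7% and 53.4% of all genes. In the ER group 5 of 13 and 10 of 13 members were lower, and in the cytosolic group 3 of 13 in each pair.

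The other classes were compared wherever both libraries of a pair held at least 50 cells. These comparisons reuse the same libraries, so they are no further replicates of a model. In osteoblasts of the NHD13 pair 6 of 33 members were lower and 1 higher (all genes 6.11% and 5.14%). In fibroblasts of that pair 8 of 35 were lower and 0 higher (3.53% and 1.69%), and in tendon cells 11 of 35 and 0 (7.27% and 3.1%). In chondrocytes of the Abcg2 pair 14 of 33 were lower and 2 higher (32.1% and 7.76%), in fibroblasts 17 of 35 and 1 (28.6% and 11.7%), and in tendon cells 13 of 33 and 0 (21.5% and 17.7%). In the chondrocytes and fibroblasts of the Abcg2 pair all genes considered were themselves shifted down, with medians of -0.31 and -0.26, beside -0.55 and -0.56 over the members.

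The ER sum was the lower one in the model library in each of these classes. In the NHD13 pair its ratio was -0.50 in osteoblasts, -0.43 in fibroblasts and -0.57 in tendon cells. In the Abcg2 pair it was -0.65 in chondrocytes (3905 against 2494 CPM), -0.93 in fibroblasts (4920 against 2577 CPM) and -0.94 in tendon cells (4347 against 2268 CPM). Relative to the median of all genes it was -0.33 in the chondrocytes and -0.67 in the fibroblasts of the Abcg2 pair. The cytosolic sum had ratios of -0.17, -0.34 and -0.47 in the NHD13 pair and of -0.20, -0.31 and -0.39 in the Abcg2 pair, in the same order. Centred on the median of all genes, the cytosolic ratio was 0.11 in the chondrocytes and -0.05 in the fibroblasts of the Abcg2 pair, so the cytosolic sum stood above the median shift in the former and close to it in the latter. In the osteoblasts of the NHD13 pair it ran from -0.41, with cells thinned to 2000 UMIs, to -0.05, with doubled marker levels.

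Of the 31 members considered in all 8 comparisons, 15 were below 0 in every one, against 285 of 3541 genes (8.05%). Sdf2l1 and Creld2 were lower by the size rule in 8 of 8, and Hspa5 and Manf in 6. In tendon cells of the Abcg2 pair Creld2 stood at 69.6 CPM in Control and 10.6 in Abcg2-MDS/AML (-2.70, from -3.26 to -2.19), and Sdf2l1 at 59.4 and 12.0 CPM (-2.30). In fibroblasts of that pair Creld2 stood at 78.3 and 13.3 CPM (-2.54), and Manf at 324 and 93.3 CPM (-1.79). In the same cells Pdia6 stood at 340.3 and 111 CPM (-1.62), and Hsp90b1 at 966 and 389 CPM (-1.31). In the fibroblasts of the NHD13 pair Creld2 stood at 100.2 and 50.2 CPM (-0.996), and Sdf2l1 at 108 and 62.5 CPM (-0.78). Of the ER group, Sdf2l1 or Creld2 had the lowest ratio in each comparison except MSCs of the NHD13 pair, where Hyou1 did (-0.83).

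**Figure D3:**
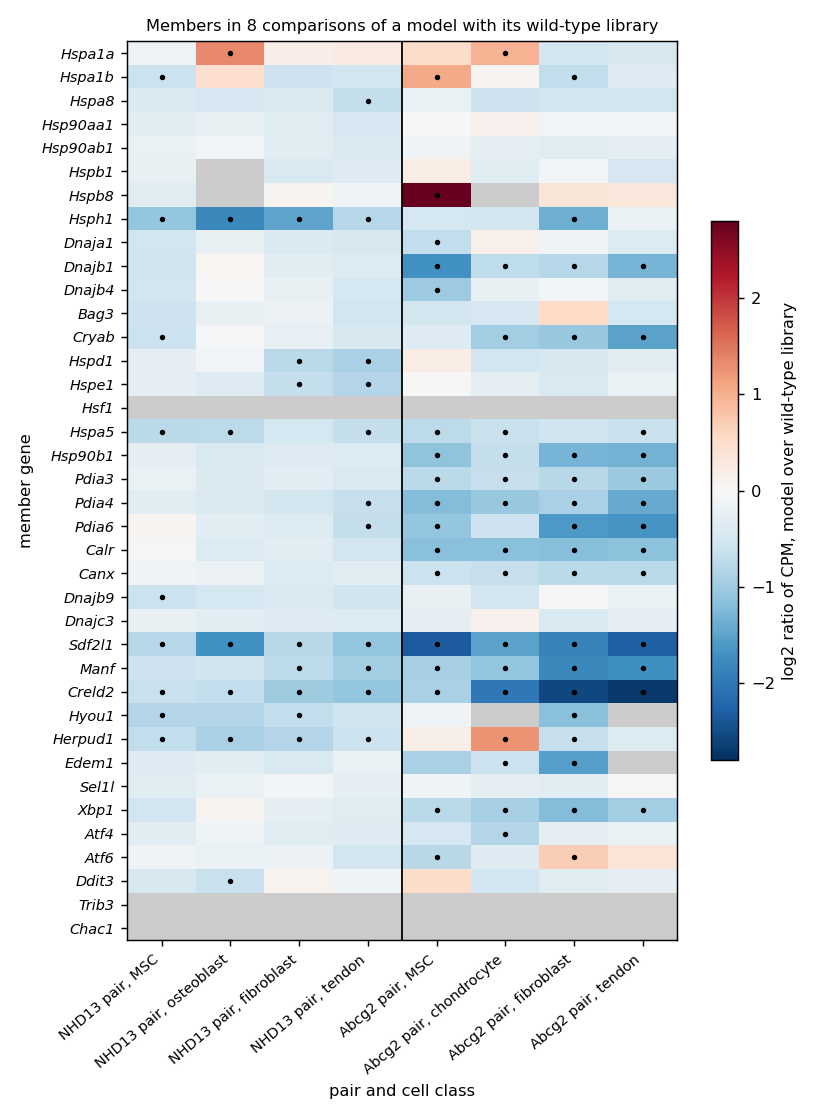
Log2 ratio of CPM, model over wild-type library (colour, blue lower and red higher), for each of the 38 members (rows) in 8 comparisons of a pair and cell class (columns). Dots mark members that pass the size rule, grey cells members under 20 CPM in both libraries, and Sdf2l1 and Creld2 carry a dot in all 8 columns.

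Some members went against this direction. Herpud1 in chondrocytes stood at 177 CPM in Control and 424.5 in Abcg2-MDS/AML (1.26, from 1.17 to 1.35), although it was lower in 4 comparisons of the NHD13 pair and in fibroblasts of the Abcg2 pair. Hspa1a in the same chondrocytes stood at 191 and 373 CPM (0.96), while its near copy Hspa1b stood at 79.8 and 84.2 CPM (0.08). Hspa1a was also higher in osteoblasts of NHD13Tg, with 31.9 CPM in WT_A1 and 82.1 in NHD13Tg (1.35), where 22.7% of the Hspa1a and Hspa1b UMIs lay in 1 cell. Atf6 in fibroblasts of the Abcg2 pair stood at 23.2 and 37.9 CPM (0.69, from 0.05 to 1.42). Hsph1 was lower in 5 comparisons, among them fibroblasts of the NHD13 pair (83.2 against 29.99 CPM, -1.47) and of the Abcg2 pair (50.3 against 19.6 CPM, -1.36).

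The mitochondrial chaperonins followed the NHD13 pair in some classes. Their sum stood at 568 CPM in WT_A1 and 351 in NHD13Tg in fibroblasts (-0.69), and at 527 and 292 CPM in tendon cells (-0.85). Hspd1 (Hsp60) and its partner Hspe1 (Hsp10) each passed the size rule in these 2 comparisons and in no other of the 8. With thinned cells Herpud1 and Ddit3 in osteoblasts and Pdia4 in tendon cells of the NHD13 pair, lower by the size rule, had ratios above 0 (0.29, 0.45 and 0.02, with intervals that include 0).

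**Figure D4:**
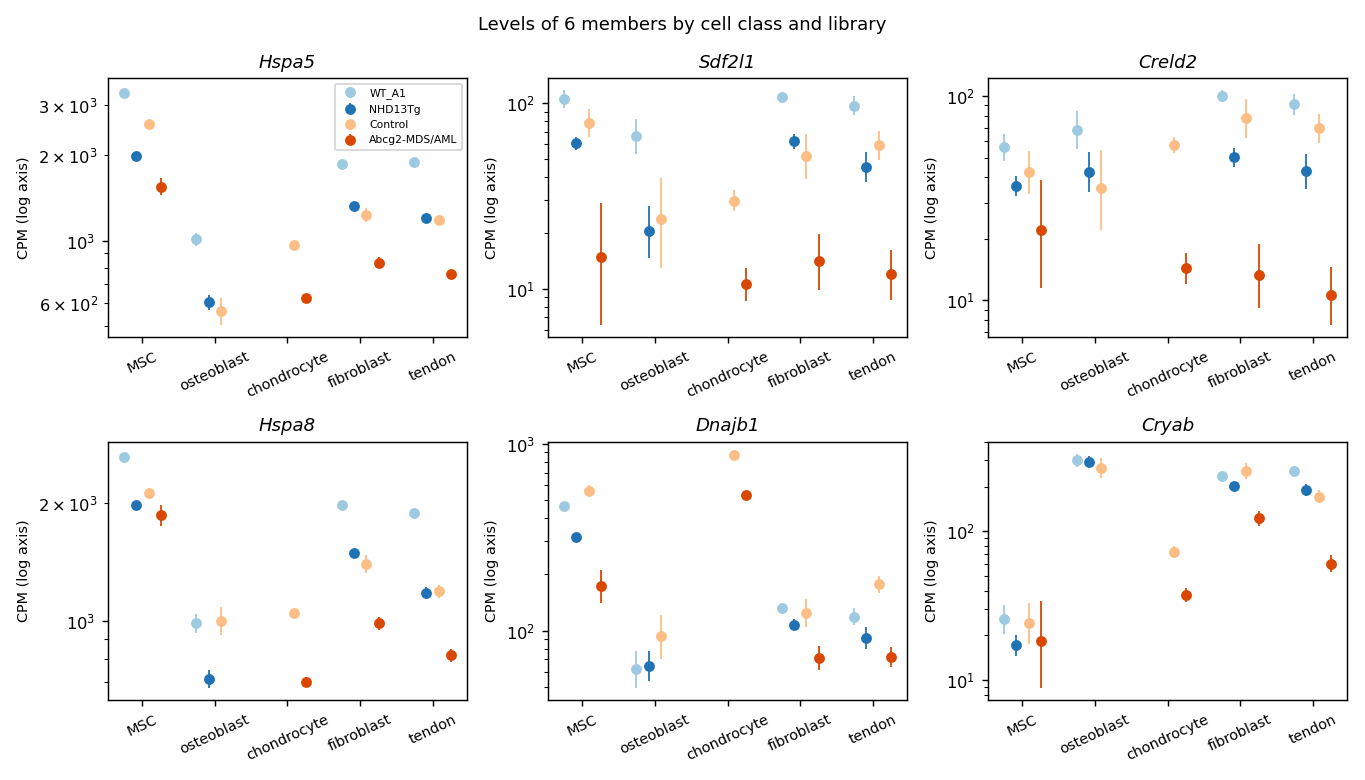
CPM on log axes of the ER chaperone genes Hspa5, Sdf2l1 and Creld2 (top) and the cytosolic genes Hspa8, Dnajb1 and Cryab (bottom) in each class and library, with exact 95% Poisson intervals. Creld2 in tendon cells runs from 91.1 CPM in WT_A1 to 10.6 CPM in Abcg2-MDS/AML, and Dnajb1 is highest in the chondrocytes of Control.

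Some other measures moved with these differences and others did not. RNA in barcodes of 1 to 100 UMIs, taken as free RNA, held cytosolic chaperones at 6573 CPM in WT_A1 against 5055 in NHD13Tg, and 5844 in Control against 4607 in Abcg2-MDS/AML, with ratios of -0.38 and -0.34, and ER chaperones with ratios of -0.40 and -0.65. The lower share thus appeared outside called cells too. The estimated share of free RNA in a class was 0.602% to 7.85%, and subtracting it moved 0 of 143 member ratios beyond their counting interval. The 20 immediate early genes of dissociation summed in MSCs to 39744 CPM in WT_A1 against 35777 in NHD13Tg, and 45971 in Control against 27756 in Abcg2-MDS/AML (-0.15 and -0.73). In fibroblasts of the NHD13 pair their ratio was 0.09, beside -0.34 for the cytosolic and -0.43 for the ER chaperones. In MSCs the 11 haematopoietic markers summed to 2155, 945, 978 and 9.21 CPM, with 8 of them at 0 in Abcg2-MDS/AML, and the 5 pericyte or smooth muscle markers to 38.9, 57.6, 47.6 and 131 CPM. Leaving out cells with blood cell RNA kept 612 of 631, 1706 of 1803, 400 of 417 and 154 of 154 MSCs. With so few cells removed the ratios could hardly move, and 0 of 143 member ratios moved beyond their counting interval. The part of blood cell RNA and of the immediate early and the pericyte or smooth muscle genes in the chaperone differences was not tested.

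Further genes of the same pathways, which are not members, were described in the same way. Of 44 other heat shock and chaperone genes matched, 36 were considered in MSCs of the NHD13 pair. Of these, 3 were lower and 0 higher (all genes 8.02% and 4.41%). The 3 were the Hsp90 co-chaperones Chordc1 (-0.93) and Stip1 (-0.87), and Cacybp (-0.81). In the Abcg2 pair 4 of 35 were lower (all genes 17.6%), namely Chordc1 (-2.09), Ahsa1 (-0.98), Hsbp1 (-0.69) and Cacybp (-0.64). Higher were 6 (all genes 12.8%). The Hsp90 co-chaperone Fkbp5, a target of glucocorticoids, stood at 12.8 CPM in Control and 99.5 in Abcg2-MDS/AML (2.94). The other 5 were Bag5 (1.08), the chaperonin subunits Cct2 (0.93) and Cct7 (0.69), the mitochondrial Hsp70 Hspa9 (0.91) and Dnajb6 (0.71). The median over this list was -0.01 and 0.13, beside -0.52 and -0.18 over the 13 cytosolic members.

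Of 55 other UPR and ER folding genes, 44 were considered in MSCs of the NHD13 pair, 2 being lower (all genes 8.02%; the ubiquitin ligase Syvn1 at -0.82 and the transcription factor Creb3l1 at -0.74) and 0 higher. In the Abcg2 pair 10 of 45 were lower (all genes 17.6%) and 1 higher (Edem3 at 1.08). The median of the list in MSCs was -0.07 in the NHD13 pair and -0.22 in the Abcg2 pair, and its summed ratio -0.02 and -0.26, beside -0.42 and -0.82 for the sum of the ER members. In the NHD13 pair the list thus lay near all genes in MSCs. In osteoblasts of that pair its median was 0.06, with 3 of 45 lower and 2 higher (all genes 6.11% and 5.14%). In fibroblasts and tendon cells of that pair 7 of 45 and 8 of 42 were lower (all genes 3.53% and 7.27%), with medians of -0.37 and -0.30. In MSCs of the Abcg2 pair the lowest of the list were Fkbp11 (-2.18), Pdia5 (-1.89), Serpinh1 (-1.86), Ostc (-1.25), Derl2 (-1.15) and Fkbp2 (-1.07). Serpinh1, the collagen chaperone, stood there at 804 CPM in Control and 221 in Abcg2-MDS/AML. In chondrocytes, fibroblasts and tendon cells of the Abcg2 pair 26 of 42, 29 of 44 and 24 of 39 genes of this list were lower (all genes 32.1%, 28.6% and 21.5%), with medians of -0.81, -0.78 and -0.72.

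A change common to both models was tested in MSCs with edgeR's quasi-likelihood test on 4 summed libraries with the pair as a term, which leaves 1 residual degree of freedom. No gene was called: 0 of 36 members tested and 0% of 10181 genes in either direction (0% higher and 0% lower) had an adjusted p under 0.05, while 532 genes had an unadjusted p under 0.05, and DESeq2 called 24 genes and 0 members. The member with the lowest adjusted p was Sdf2l1 (log2 difference -1.27 ± 0.39 SE, adjusted p 0.796, edgeR). Dnajb1 (-1.04 ± 0.37), Hsph1 (-0.82 ± 0.34) and Dnajb4 (-0.69 ± 0.29) were the other 3 members with an unadjusted p under 0.05. The fitted difference was below 0 for 30 of the 36.

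The levels of members differed between cell classes, and here the 4 libraries serve as replicates. Each class was set against the mean of the other 4 with edgeR's quasi-likelihood test on 17 sums with library as a term (9 residual degrees of freedom, 11726 genes and 37 of 38 members tested, Trib3 left out as too low, Benjamini-Hochberg adjustment). The classes were cut on genes that are not members. In MSCs 13 members were higher and 7 lower, beside 26% and 21.4% of all genes. In osteoblasts 5 were higher and 17 lower (17.5% and 20.6%), in chondrocytes 8 and 1 (20.4% and 15.8%), in fibroblasts 6 and 3 (16.5% and 12.9%), and in tendon cells 4 and 3 (14.7% and 7.4%). The lower members in osteoblasts stood furthest above their background share. Those higher in chondrocytes and fibroblasts, and those lower in MSCs and tendon cells, lay close to theirs. Scaling by summed UMIs in place of TMM, edgeR's default scaling, moved this balance. Members then were 22 higher and 2 lower in MSCs (all genes 41.9% and 10.8%), 3 and 23 in osteoblasts (11.1% and 30.4%), 6 and 5 in chondrocytes (12.8% and 27.2%), 13 and 1 in fibroblasts (25.4% and 8.01%) and 6 and 2 in tendon cells (16.3% and 5.81%). Among the called members only Hsp90ab1 and Canx, lower in MSCs under TMM, changed sign without it (0.07 and 0.01).

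Small heat shock proteins separated the classes most. Cryab (alphaB-crystallin) stood at 17.2 to 25.8 CPM in MSCs of the 4 libraries, 37.3 to 73.1 in chondrocytes, 123 to 255 in fibroblasts, 60.9 to 256 in tendon cells and 269 to 302 in osteoblasts of 3 libraries. MSCs did not overlap any other class, and the log2 difference was -3.25 ± 0.20 SE in MSCs (adjusted p 1.49e-08, edgeR) and 1.87 ± 0.17 in osteoblasts. Hspb1 (Hsp27 in humans) stood at 8.42 to 22.0 CPM in osteoblasts, below every other class, and at 333 to 462 CPM in tendon cells. Its difference was -3.91 ± 0.23 in osteoblasts (adjusted p 1.66e-08, edgeR), 1.44 ± 0.13 in fibroblasts and 1.98 ± 0.13 in tendon cells. Hspb8, which works with Bag3, stood at 112 to 161 CPM in fibroblasts and 58.5 to 72.9 in tendon cells, and at 0 to 4.74 in osteoblasts. Its differences were 3.06 ± 0.23, 1.86 ± 0.24 and -3.73 ± 0.50. Cryab and its kin Hspb1 thus lay at opposite ends in osteoblasts, and these calls held when each library was left out.

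Dnajb1 was higher in chondrocytes and in MSCs. It stood at 532 and 866 CPM in the chondrocytes of the 2 libraries that held them and at 173 to 561 in MSCs, ranges that overlap, against 72.1 to 177 CPM in tendon cells, 71.6 to 131 in fibroblasts and 62.1 to 92.9 in osteoblasts. Its difference was 0.88 ± 0.16 SE in MSCs and 2.84 ± 0.21 in chondrocytes (adjusted p 2.77e-07, edgeR). Hspa1a (1.87 ± 0.31), Dnaja1 (1.02 ± 0.18) and Hspe1 (0.80 ± 0.15) were also higher in chondrocytes and were called with each library left out. Without Control or without Abcg2-MDS/AML, chondrocytes rested on the other library alone. Hspa1b, the near copy of Hspa1a, was not called in chondrocytes (0.40 ± 0.27, adjusted p 0.26, edgeR), and the split of reads between them is uncertain. Herpud1 was higher there too (1.28 ± 0.27), but without Abcg2-MDS/AML its adjusted p was 0.349 in edgeR. The chondrocytes came from Control and Abcg2-MDS/AML only, WT_A1 and NHD13Tg holding 4 and 6. Of the immediate early genes 12 of 20 were higher in chondrocytes and 0 lower, and their part in these differences was not tested.

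Hspa5 led the MSC class, at 1548 to 3327 CPM against 563 to 1009.9 in osteoblasts, 629 to 967 in chondrocytes, 835 to 1864 in fibroblasts and 764 to 1895 in tendon cells (0.88 ± 0.10 SE, adjusted p 6.36e-06, edgeR). Within every library the MSC value was the highest. Dnajb9 (0.89 ± 0.12), the Hspa5 partner made in the UPR, Atf6 (0.78 ± 0.15), Hspa8 (0.63 ± 0.10), Dnaja1, Dnajb1 and Dnajb4 were likewise higher in MSCs with each library left out. The other 6 members higher in MSCs (Hspb1, Pdia4, Pdia6, Sel1l, Atf4 and Ddit3) lost the call when 1 library was left out. Of the 7 lower members Cryab and Hspe1 (-0.78 ± 0.12) kept it. Hspb1, at 178 to 265 CPM in MSCs, lay below fibroblasts (274 to 366) and tendon cells (333 to 462). It lay above chondrocytes (88.1 to 111) and osteoblasts (8.42 to 22.0).

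In osteoblasts Hspa5 was lower (-0.88 ± 0.13 SE), as were Dnajb1 (-1.65 ± 0.22), Dnaja1 (-1.40 ± 0.17), Hspa1a (-1.55 ± 0.33), Hspa1b (-1.32 ± 0.27), Bag3 (-0.97 ± 0.20) and Sel1l (-0.69 ± 0.15). Edem1, which extracts misfolded glycoproteins, was higher (1.14 ± 0.17), at 46.9 to 59.1 CPM against 14.7 to 35.2 in MSCs. These calls held with each library left out, while those of Xbp1 (0.41 ± 0.12), Manf (0.54 ± 0.15) and Chac1 (2.79 ± 0.85, at 0 to 6.37 CPM) did not. The immediate early genes moved with them: 18 of 20 were lower in osteoblasts, and 11 of 20 were higher in MSCs and 12 in chondrocytes. Their part in these class differences was not tested.

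**Figure D5:**
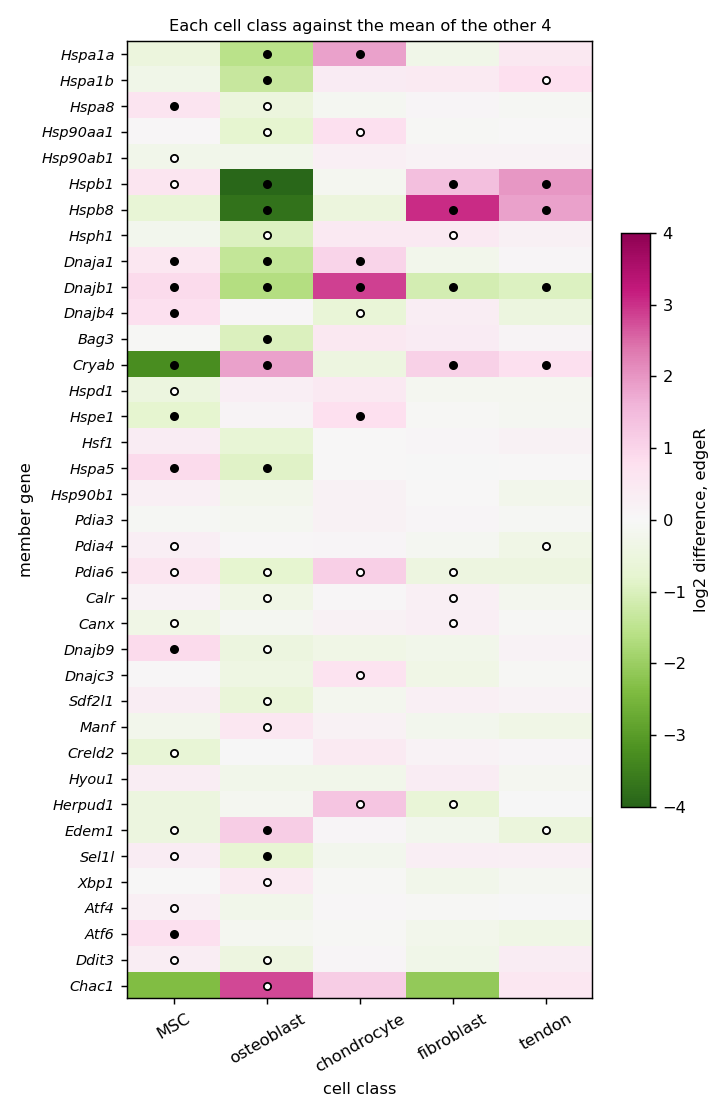
Log2 difference of each class (columns) from the mean of the other 4 for the 37 members tested (rows), from edgeR, pink higher and green lower. Circles mark an adjusted p under 0.05, filled where the call held with each library left out, as for Cryab in 4 columns.

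The 2 lists of further pathway genes divided the classes differently. In osteoblasts 27 of 54 other UPR and ER folding genes tested were higher and 7 lower (all genes 17.5% and 20.6%), and 22 and 10 without TMM (11.1% and 30.4%). The lowest adjusted p of both lists were for Creb3l1 (2.98), Hspb2 (4.10), Fkbp11 (3.94) and Serpinh1 (1.84) in osteoblasts and for Ppp1r15b (1.14), Sec61g (-1.14), Hspb2 (-3.57) and Bag1 (-1.45) in MSCs. They were for Hspb6 (2.45), Creb3l2 (1.65), Dnajb2 (1.78) and Sesn2 (1.92) in chondrocytes, for Atf5 (0.76), Erlec1 (-0.77), Hspa4l (1.07) and Pdia5 (-1.15) in fibroblasts, and for Pdia5 (-1.68), Hspa4l (1.35), Ostc (-0.84) and Serpinh1 (-0.82) in tendon cells. Hspb2, the neighbour of Cryab on the genome, went the same way as Cryab in MSCs and osteoblasts.

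Single MSCs showed the ER difference among low and high cells alike. The median MSC held 78.8 cytosolic chaperone UMIs per 10000 in WT_A1 against 59.5 in NHD13Tg, and 66.6 in Control against 53.5 in Abcg2-MDS/AML, and 76.5, 59.1, 69.6 and 38.5 ER chaperone UMIs. The lowest 10% of MSCs lay below 45.3, 35.4, 43.4 and 14.7 ER UMIs per 10000, and the highest 10% above 122, 90.03, 104 and 68.3. Across the MSCs of a library the cytosolic and the ER sums were nearly unrelated in WT_A1, NHD13Tg and Control (rank correlation 0.10, 0.12 and 0.09 over 631, 1803 and 417 cells) and related in Abcg2-MDS/AML (0.45 over 154 cells). The cytosolic sum followed the immediate early genes in all 4 (0.51, 0.38, 0.39 and 0.53), and the ER sum did so in none of the first 3 (-0.02, -0.00 and -0.02, against 0.26). The rank correlations were taken after thinning each cell to 2000 UMIs. Cells of a library share its preparation, so these values are descriptions.

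The inducible genes Hspa1a and Hspa1b were found in a minority of MSCs. After thinning each cell to 2000 UMIs, 26.8% of MSCs in WT_A1 against 20.8% in NHD13Tg, and 24.0% in Control against 35.1% in Abcg2-MDS/AML held a UMI of either (43.9%, 36.7%, 35.5% and 47.4% unthinned). The exact binomial intervals were 23.4% to 30.4%, 18.9% to 22.7%, 19.96% to 28.4% and 27.6% to 43.2%, which cover counting over the cells of 1 library each and give no test of the groups. Osteoblasts, the lowest class, held such a UMI in 11.1% to 15.2% of thinned cells in the 3 libraries with at least 50 of them. The 10% of cells with the most UMIs of these genes held 49.4% to 60.0% of them in MSCs.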

How the data were processed

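UMI counts per gene and barcode, raw and not normalized, were deposited by the authors for each of the 4 libraries. Cell Ranger 3.1.0 and Seurat 3.2.3 are named in the submitters' processing notes, while the build of the genome and its annotation are things not given in the sources used here. Barcodes were filtered and put in classes as the report states, cells that met more than 1 class were dropped (2.90% to 16.5% of a library), and no doublet caller was run. UMIs were summed per library and class. Pairs were compared by log2 ratios of CPM with exact conditional binomial intervals, tested on simulated data (Python 3.11.15, NumPy 2.4.6, SciPy 1.17.1). Classes, and both models together, were tested on the sums with edgeR 4.0.16 (quasi-likelihood, TMM, R 4.3.3), with DESeq2 1.42.0 as an alternative. The median cell of the MSC class held 3323 to 4443 UMIs. The summed UMIs of that class ran from 542722 in Abcg2-MDS/AML to 8736366 in NHD13Tg. This limits values near 20 CPM, most of all in the former. The p-values measure only the spread between these libraries.

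All members were named, with up to 6 further pathway genes per direction and pair in MSCs, by ratio, and up to 4 per class by adjusted p. The members, lists and tests were chosen with earlier results of these data known. Alternatives were other depth limits (1000 or 4000 UMIs), doubled marker levels, cells of several classes kept, free RNA subtracted, thinning to 2000 UMIs, no filter on low counts and each library left out. Chosen after seeing the data were centring on the median of all genes, leaving out the member with the most UMIs, requiring Cxcl12, leaving out cells with blood cell RNA, and scaling without TMM. Cct6a, 1 symbol of the further genes, was not matched and is not analysed here. Promoters are from RefSeq, build GRCm38.p6.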

Additional observations from a re-analysis of the deposited data

Results flagged for a closer look

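Hspa1b in MSCs had log2 ratios of opposite sign in the 2 pairs, with counting intervals that leave out 0 in both. NHD13Tg stood below WT_A1 (-0.61, from 68.4 against 104 CPM), and Abcg2-MDS/AML above Control (1.05, from 140.04 against 67.7 CPM). The difference between the pairs was not tested, each group being 1 library. Hspa1b is nearly identical to Hspa1a, so the split of reads between them is uncertain, and Hspa1a had ratios of -0.14 and 0.52.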

How the results depend on the processing

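A change of sign was counted only for member ratios that passed the size rule. Of 1144 member ratios recomputed under alternatives, 1053 stayed within their counting interval, 87 moved further and 4 were counted as changing sign. Those 4 were Creld2 in MSCs of the Abcg2 pair with doubled marker levels (0.25), and, thinned to 2000 UMIs in the NHD13 pair, Herpud1 (0.29) and Ddit3 (0.45) in osteoblasts and Pdia4 in tendon cells (0.024). The cytosolic sum in chondrocytes of the Abcg2 pair was 0.11 when centred on the median of all genes; the other 15 sums stayed below 0 under every alternative that gave a value. In MSCs of the NHD13 pair the cytosolic ratio was -0.32 at 4000 UMIs, -0.43 thinned and -0.32 centred, and the ER ratio -0.45 with doubled markers, -0.37 centred and -0.23 without Hspa5. In those of the Abcg2 pair the cytosolic ratio was -0.37 with cells of several classes kept, -0.17 with doubled markers and -0.22 centred, and the ER ratio -0.94 and -0.75 under the former 2. The cause was not tested.

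Leaving out each library gave 3812 to 5979 genes called in MSCs (5566 with all), 2600 to 4673 in osteoblasts (4468), 2474 to 3832 in chondrocytes (4242, lowest without Abcg2-MDS/AML), 1941 to 3376 in fibroblasts (3449) and 1324 to 2479 in tendon cells (2597). Without NHD13Tg osteoblasts, fibroblasts and tendon cells had 2600, 1941 and 1324, and without WT_A1 2920, 2163 and 1477. The joint MSC test called 0 genes with edgeR, 24 with DESeq2 and 162 without the filter on low counts, and had no residual degree of freedom with a library left out. The Abcg2 pair gave no MSC value at 4000 UMIs or with Cxcl12 required, having under 50 cells in Abcg2-MDS/AML. With Cxcl12 required 19 of 154 MSCs of that library remained, against 402 of 417 in Control. No paired analysis was possible because each group is 1 library and the groups share only 1 replicate number, so a replicate block could not be fitted. The joint MSC test carried the design's pairs as a term.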

Other observations

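Cells that met no class held the mitochondrial chaperonins Hspd1 and Hspe1 at 1182 CPM in Control, against 506 in WT_A1, 366 in NHD13Tg and 302 in Abcg2-MDS/AML. Free RNA of Control held them at 788 CPM, against 481, 339 and 376 in the same order, while MSCs of the 4 libraries lay between 282 and 339 CPM. The cells without a class were 54.6% of those in Control.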
